A study of Mus musculus with 3 samples.

Results

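The kidney aquaporins and the vasopressin receptor of the collecting duct were examined in mouse kidneys on day 1 of anti-GBM glomerulonephritis, in which an injected antibody binds the basement membrane of the glomeruli (GBM) and inflames them. The set has 7 genes, Aqp1, Aqp2, Aqp3, Aqp4, Aqp6, Aqp7 and Avpr2, out of 10698 genes named on the arrays. Their rows were found by gene symbol, and the genes were picked with their ratios on these same arrays known, so the values below describe them and no p-value is given for them. Of the 7 genes, 6 had a row and 5 were measured on all 3 arrays, through 6 rows, among 7235 genes measured on every array.

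The single group was 3 BALB/c mice (mice 11, 12 and 13, replicates 1, 2 and 3) on day 1 after the anti-GBM antibody. Each mouse's kidney RNA was put on its own 2-colour array, with Cyanine-5, against Cyanine-3-labelled RNA pooled from the kidneys of 5 normal BALB/c mice. The antibody's dose and source, the age and sex of the mice and any serum given to the controls are not given in the labels. The pool is 1 control sample on every array, so the spread between normal mice is not in any value, and no array had the dyes swapped. RNA came from kidney with no separation of cells, so fewer cells of a type and less RNA per cell cannot be told apart. A ratio gives no level, so the labelled tissue could not be checked from levels of kidney genes.

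Aquaporins are membrane channels that let water cross cells along an osmotic gradient, and some of them, the aquaglyceroporins, also carry glycerol. In the collecting duct, vasopressin binds the receptor encoded by Avpr2 on principal cells. The receptor raises cyclic AMP through Gs and adenylate cyclase, protein kinase A phosphorylates aquaporin-2, and vesicles carrying it fuse with the apical membrane. Water then leaves the cell through aquaporin-3 and aquaporin-4 in the basolateral membrane. Over longer times the same cascade raises transcription of Aqp2.

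To show the regulatory stretch next to the genes on which the results turn, the 250 bases before the start sites of Aqp2, Avpr2 and Aqp3 are printed 5′ to 3′ on the gene's strand, from RefSeq (GRCm38.p6). Aqp2 lies at chr15:99578806-99579055 (plus strand), Avpr2 at chrX:73891852-73892101 (plus strand) and Aqp3 at chr4:41098184-41098433 (minus strand). Capitals mark the core of the cAMP response element (CGTCA, or TGACG on the other strand) and the TATA box (TATAAA, or TTTATA on the other strand).
Aqp2: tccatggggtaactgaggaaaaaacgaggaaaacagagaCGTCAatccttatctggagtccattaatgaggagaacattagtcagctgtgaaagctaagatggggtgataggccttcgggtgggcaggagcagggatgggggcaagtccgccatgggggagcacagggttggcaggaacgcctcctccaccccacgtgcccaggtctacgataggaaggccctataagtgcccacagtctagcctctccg
Avpr2: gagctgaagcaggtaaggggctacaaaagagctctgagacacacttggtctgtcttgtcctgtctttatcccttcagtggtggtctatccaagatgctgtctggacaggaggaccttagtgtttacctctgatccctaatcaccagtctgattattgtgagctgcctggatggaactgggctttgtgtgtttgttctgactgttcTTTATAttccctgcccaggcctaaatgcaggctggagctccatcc
Aqp3: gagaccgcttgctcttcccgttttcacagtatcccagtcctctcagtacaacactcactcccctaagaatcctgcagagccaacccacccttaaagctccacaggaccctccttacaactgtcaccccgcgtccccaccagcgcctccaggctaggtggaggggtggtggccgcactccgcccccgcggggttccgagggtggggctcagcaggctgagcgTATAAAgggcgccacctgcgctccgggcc
The Aqp2 stretch held CGTCA at positions -211 to -207, counted from the start site. No other of the 7 promoters listed for 6 of these genes held it, while 17.8% of the 32851 promoters in the table did. The Aqp3 stretch held TATAAA at -29 to -24, and the Avpr2 stretch held TTTATA at -45 to -40, against a TATA match in 12.4% of all promoters. The remaining motif, the tonicity element core (TGGAAA, or TTTCCA on the other strand), was found in 1 of the 2 promoters listed for Aqp7 and in 18.6% of all promoters. No matches of the 3 motifs overlapped. A match of letters is a description of the sequence and says nothing about binding.

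The measured genes fell on both sides of 0. Avpr2, Aqp3 and Aqp4 lay below 0 in all 3 mice, and Aqp1 and Aqp2 lay slightly above 0 in all 3 mice. Values are deposited log ratios of unstated base, less each array's median over its values other than 0, and means are given ± SD over n = 3 mice. The sign is not defined in the table. It was taken as anti-GBM over pool, the likely reading, since Cyanine-5 over Cyanine-3 is the common convention and Cyanine-5 marked the anti-GBM RNA. With the opposite convention all signs would switch. A fold is given for a log of base 2 and of base 10.

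The receptor comes first in the pathway. Avpr2 was at -0.30 in mouse 11, -0.34 in mouse 12 and -0.58 in mouse 13, a mean of -0.41 ± 0.15, which is 1.33-fold lower if the base is 2 and 2.56-fold lower if it is 10. It was measured by 2 rows, which lie far apart in the table. Row 10693 gave -0.23, -0.23 and -0.64 in mice 11, 12 and 13 (mean -0.37 ± 0.23). Row 14398 gave -0.37, -0.45 and -0.53 (mean -0.45 ± 0.08). All 6 readings were below 0, the ranges of the rows overlapped, and mouse 13 was the lowest in both.

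Aqp2 encodes the channel of the apical side that vasopressin controls. Its row read 0.15 in mouse 11, 0.14 in mouse 12 and 0.06 in mouse 13, a mean of 0.12 ± 0.05, or 1.09-fold at base 2 and 1.32-fold at base 10. All 3 values were small and above 0, and none overlapped those of Avpr2. Aqp2 exceeded Avpr2 by 0.45, 0.48 and 0.65 in mice 11, 12 and 13.

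The basolateral channels were both below 0. Aqp3, which passes water and glycerol, was at -0.44, -0.29 and -0.69 in mice 11, 12 and 13 (mean -0.47 ± 0.20, 1.39-fold lower at base 2 and 2.97-fold lower at base 10). Aqp4, which passes water and has splice forms that this row cannot separate, was at -0.47, -0.97 and -1.15 (mean -0.86 ± 0.35, 1.82-fold lower at base 2 and 7.28-fold lower at base 10). Aqp4 was the lowest of the measured genes in each mouse and the most variable, with mouse 11 nearest to 0. Mouse 13 had the lowest value for each of Avpr2, Aqp3 and Aqp4, and its Aqp2 value was also the lowest. Relative to Aqp2 within the same array, Aqp3 was lower by 0.59, 0.43 and 0.75, and Aqp4 by 0.62, 1.12 and 1.21.

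**Figure D1:**
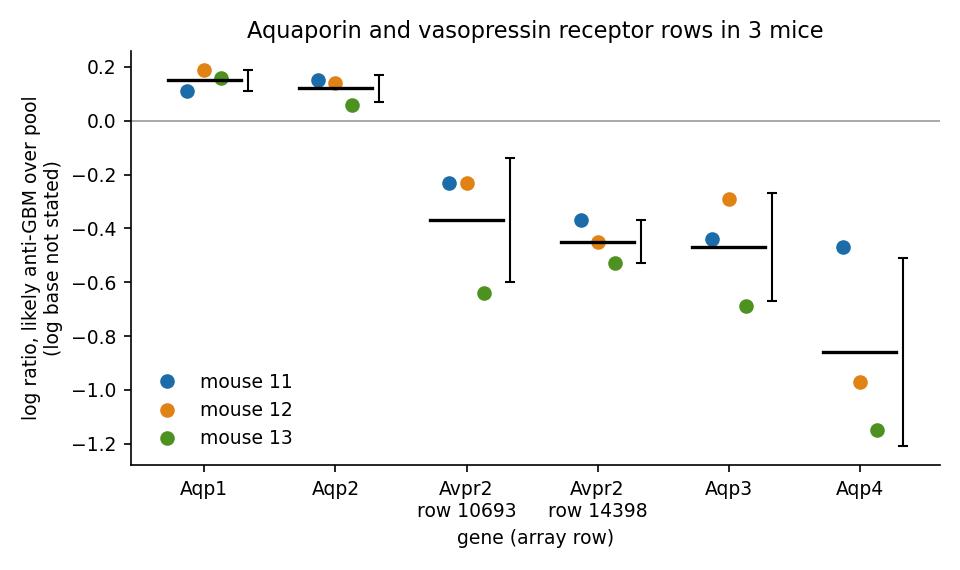
Log ratio (vertical axis, base not stated) of each array row of Aqp1, Aqp2, Avpr2, Aqp3 and Aqp4, with 1 point per mouse, a bar at the mean and an error bar of 1 SD (n = 3). Aqp1 and Aqp2 sit between 0.06 and 0.19, and every point of Avpr2, Aqp3 and Aqp4 sits at -0.23 or lower.

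Aqp1 encodes the constitutive water channel of the proximal tubule and the descending thin limb, and it is also made in vasa recta endothelium and red blood cells. Its values were 0.11, 0.19 and 0.16 in mice 11, 12 and 13 (mean 0.15 ± 0.04, 1.11-fold at base 2 and 1.42-fold at base 10). They overlapped those of Aqp2, and the difference of Aqp1 from Aqp2 was 0.03 ± 0.07 with both signs among the mice. With the local median of the rows nearest in row number subtracted, its mean was 0.08.

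From lowest to highest mean the order was Aqp4, Aqp3, Avpr2, Aqp2 and Aqp1. Aqp4 and Aqp3 were neighbours whose ranges overlapped, with Aqp3 above Aqp4 by 0.39 ± 0.33. Aqp3 and Avpr2 were closer still, at a difference of -0.06 ± 0.10 with both signs among the mice. The step from Avpr2 to Aqp2, 0.53 ± 0.11, was the only one between neighbours without overlap of the mice. Among all 7235 genes, Aqp4 had the 36th lowest mean, Aqp3 the 201st lowest and Avpr2 the 288th lowest. Aqp1 and Aqp2 were within the upper part of the bulk, with 77.4% and 72.5% of genes below them. For scale, the means of all genes had a median of 0.00 and 5th and 95th percentiles of -0.38 and 0.38, and the median SD over the 3 mice was 0.13.

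**Figure D2:**
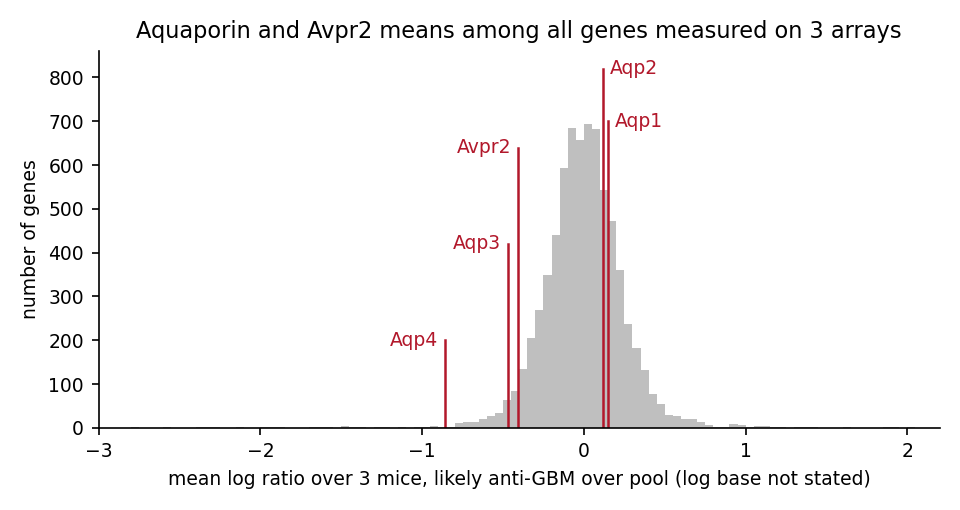
Histogram of the mean log ratio over 3 mice (horizontal axis, base not stated) for 7235 genes, with the vertical axis counting genes. Red lines mark Aqp4 (-0.86), Aqp3 (-0.47), Avpr2 (-0.41), Aqp2 (0.12) and Aqp1 (0.15), and their heights carry no value. The first 3 stand in the lower tail and the other two inside the bulk.

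In the fit across all genes (limma, Benjamini-Hochberg adjusted p under 0.05), 1407 of 7235 genes passed, 19.4% of them, with 9.48% higher and 9.97% lower. The fit set the 3 ratios of each gene against 0, so its p-values hold only the spread among these arrays. A deviation of the shared pool or a dye effect on a gene would count as a difference. Avpr2, Aqp3 and Aqp4 were among the lower genes, 3 of 5 measured, and Aqp1 and Aqp2 were not past the threshold. The genes were picked from these ratios, so this count supports nothing. With mouse 11, 12 or 13 left out in turn, the mean of Avpr2 ran from -0.46 to -0.32, of Aqp3 from -0.56 to -0.36, of Aqp4 from -1.06 to -0.72, of Aqp1 from 0.14 to 0.17 and of Aqp2 from 0.10 to 0.15. None of the 6 rows lay in one of the crowded stretches, where very low values gather at neighbouring row numbers: each had 0 or 1 other row with a mean below -1 within 100 row numbers, against at least 3 in a crowded stretch. The local medians around them lay between -0.10 and 0.11.

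Aqp6 and Aqp7 could not be described. Aqp6, a channel of intracellular vesicles in intercalated cells, had no row naming it. Aqp7, an aquaglyceroporin of the straight proximal tubule and of fat cells, had 1 row, listed at exactly 0 for all 3 mice. An exact 0 was read as no estimate. The rows of Umod, Kap, Pck1 and Lrp2, genes abundant in kidney tubules, were also at 0 on every array, as were 3867 of 16281 rows, so a 0 says nothing of how much RNA there was. In RefSeq order, Aqp7 and Aqp3 are next to each other on chromosome 4, and Aqp2 and Aqp6 on chromosome 15 have only Aqp5 between them among protein-coding genes. Of the neighbours, Aqp2 and Aqp5 were both measured, at 0.12 ± 0.05 and -0.16 ± 0.27, and their values overlapped in range.

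The other aquaporins gave 2 measured genes of 6 listed. None passed the test by limma, and 1 had an unadjusted p under 0.05. Aqp8, a channel of the proximal tubule and digestive tract, was at 0.17, 0.66 and 0.13 (mean 0.32 ± 0.29, adjusted p = 0.0833). Aqp5, a channel of glands and lung, was at -0.14, -0.45 and 0.09 (mean -0.16 ± 0.27, adjusted p = 0.299). Aqp9 was listed at 0 on every array.

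Receptors, kinases and regulators of the vasopressin cascade other than Avpr2 mostly did not pass the test. Of 27 measured genes on a list of 43, 1 was higher and 1 lower, while 25 did not pass, 7.41% against 19.4% of all genes. The median was 0.05 beside 0.00 for all genes, with 18 means above 0 and 9 below. At an unadjusted p under 0.05 in limma, 2 were higher and 4 lower. Akap12, a scaffold that anchors protein kinase A, was higher at 0.48 ± 0.12 (adjusted p = 0.00802), with rows at 0.29 and 0.68 of which at least 1 lay in a crowded stretch. Grk4, a kinase that desensitizes G protein-coupled receptors, was lower at -0.27 ± 0.11 (adjusted p = 0.0442). However, its rows were at -0.48 and -0.06, at least 1 of them in a crowded stretch. Without mouse 11 or 13 it missed the threshold (adjusted p up to 0.285).

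The core of the cascade did not pass. Gnas, which encodes the Gs alpha subunit that the receptor activates, was at -0.47, -0.19 and -0.11 (mean -0.26 ± 0.19, adjusted p = 0.0827). Its 2 rows had means of -0.44 and -0.07. The adenylate cyclase Adcy6 was at 0.16 ± 0.12, the kinase subunits Prkaca and Prkacb at -0.03 ± 0.16 and -0.22 ± 0.16, and the transcription factor Creb1 at 0.03 ± 0.06. The hormone gene Avp, transcribed mainly in the hypothalamus, was at -0.06 ± 0.11 in the row measured on all arrays. Avpr1a, the receptor that signals through calcium, had rows of opposite sign, at -0.25 ± 0.21 and 0.20 ± 0.12, so its mean of -0.02 ± 0.16 describes neither. Of the receptors with 2 rows measured on all arrays, the rows of Avpr2 shared a sign in all mice and those of Avpr1a did not. Avpr2 was picked with its ratios known, so this contrast supports nothing.

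Of the genes that move and fuse aquaporin-2 vesicles, most did not pass the test. Of 37 measured genes on a list of 47, 5 were higher and 0 lower, while 32 did not pass, with a median of 0.06; at an unadjusted p under 0.05 in limma 2 were lower. The share past the test, 13.5%, was below the 19.4% of all genes, and 3 of the 5 calls were lost with 1 mouse left out. Anxa2, an annexin of membrane trafficking, was at 0.52 ± 0.07 (adjusted p = 0.00523). The dynein light chain Dynll1 (0.38 ± 0.11), the clathrin adaptor subunit Ap2m1 (0.35 ± 0.07) and the dynactin subunits Dctn4 (0.40 ± 0.26) and Dctn5 (0.27 ± 0.10) were the others. Ap2m1 no longer passed without mouse 11 or 12 (adjusted p up to 0.0606), Dctn4 without mouse 12 or 13 (0.11) and Dctn5 when any 1 mouse was left out (0.151). Rows of Dynll1 and Dctn5 lay in crowded stretches. The fusion proteins themselves did not pass: Vamp2 was at 0.06 ± 0.16, Stx4a at 0.15 ± 0.08, Snap23 at 0.15 ± 0.28 and Rab11a, which recycles the vesicles, at 0.13 ± 0.10.

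Local regulators that oppose or modify vasopressin gave 2 higher, 1 lower and 16 that did not pass among 19 measured genes of 30 (15.8%, median -0.03). The purine-gated channel P2rx4 was higher at 0.44 ± 0.06 (adjusted p = 0.00824). The phospholipase Pla2g4a, which frees arachidonic acid, was at 0.24 ± 0.04 (adjusted p = 0.0485) and no longer passed when any 1 mouse was left out (adjusted p up to 0.284). Ptges3, a co-chaperone also described as a prostaglandin E synthase, was lower at -0.36 ± 0.18 (adjusted p = 0.0299). Its row lay in a crowded stretch, and it no longer passed without mouse 11 or 13 (0.0944). The prostaglandin E receptors did not pass, with Ptger2 at -0.27 ± 0.17, Ptger3 at -0.20 ± 0.20 and Ptger4 at 0.01 ± 0.21.

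Genes listed as osmoprotective, for the response to the salty medulla that water reabsorption needs, went both ways. The part of tonicity in their values was not tested. Of 11 measured genes of 18, 2 were higher and 3 lower, while 6 did not pass (45.5% against 19.4%, median 0.06). Slc5a3, the transporter of the osmolyte inositol, was lower at -0.43 ± 0.11 (adjusted p = 0.0108). The chaperones Hspa1b (-0.76 ± 0.27) and Sdf2l1 (-0.92 ± 0.39) were lower with rows in crowded stretches, and the rows of Sdf2l1 were at -2.06 and 0.23. S100a4 was higher at 0.74 ± 0.35 (adjusted p = 0.00969). The tonicity-responsive factor Nfat5 was at 0.33 ± 0.12 (adjusted p = 0.0287), and no longer passed without mouse 11 or 13 (adjusted p up to 0.0808). The urea transporter Slc14a2 of the inner medullary collecting duct did not pass (-0.07 ± 0.18).

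Glycerol is the other solute of Aqp3 and Aqp7. Of 9 measured genes of glycerol handling, on a list of 21, 2 were lower and 0 higher, while 7 did not pass (22.2%, median 0.03), and 2 were higher at an unadjusted p under 0.05 in limma. Gpd1, which interconverts glycerol phosphate and dihydroxyacetone phosphate, was at -0.33 ± 0.13 (adjusted p = 0.0271), and no longer passed without mouse 11 or 13 (adjusted p up to 0.113). Lpl, the lipase of triglyceride-rich lipoproteins, was at -0.40 ± 0.24 (adjusted p = 0.0311), and no longer passed without mouse 12 or 13 (0.0928).

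Most markers of principal cells, which make Avpr2, Aqp2, Aqp3 and Aqp4, did not pass the test. Of 23 measured markers of principal cells and the collecting duct, on a list of 34, 1 was higher and 3 lower, while 19 did not pass (17.4% against 19.4%). The median of the list was 0.03, and 0.12, 0.03 and -0.09 in mice 11, 12 and 13. The sodium channel subunits Scnn1a, Scnn1b and Scnn1g were at 0.03 ± 0.13, 0.11 ± 0.03 and 0.11 ± 0.17. The glucocorticoid-inactivating enzyme Hsd11b2 was at -0.06 ± 0.06 and the transcription factor Gata3 at -0.01 ± 0.10. Other markers that did not pass were lower in some mice. The growth factor binding protein Igfbp3 was at -0.66 in mouse 12, Prom2 at -0.37 and -0.44 in mice 12 and 13, and the transcription factor Ehf and the sodium pump regulator Fxyd4 at -0.36 and -0.35 in mouse 13. Over the whole list, 7 of 23 markers had a value at or below -0.29 in some mouse, 1 of them in all 3 mice, and 16 had none. This cut is the highest value of Avpr2, Aqp3 and Aqp4 in any mouse once the rows of a gene are averaged. The part of principal cell number in the values of Avpr2, Aqp3 and Aqp4 was not tested.

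The principal cell list did hold lower genes. The sialyltransferase St6gal1 was at -0.39 ± 0.01 (adjusted p = 0.0112), and the potassium channels Kcnj10 and Kcnj1 were at -0.38 ± 0.08 and -0.31 ± 0.07 (adjusted p = 0.0148 and 0.0261). Kcnj10 no longer passed without mouse 11 (0.0674) and Kcnj1 without mouse 11 or 12 (adjusted p up to 0.105). The higher gene was Kcnj16, a partner subunit of Kcnj10, at 0.31 ± 0.20 (adjusted p = 0.0482), with a row in a crowded stretch, and it no longer passed without mouse 11 or 13 (0.143). Both Kcnj1 and Kcnj10 are also made in the thick limb or distal convoluted tubule.

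**Figure D3:**
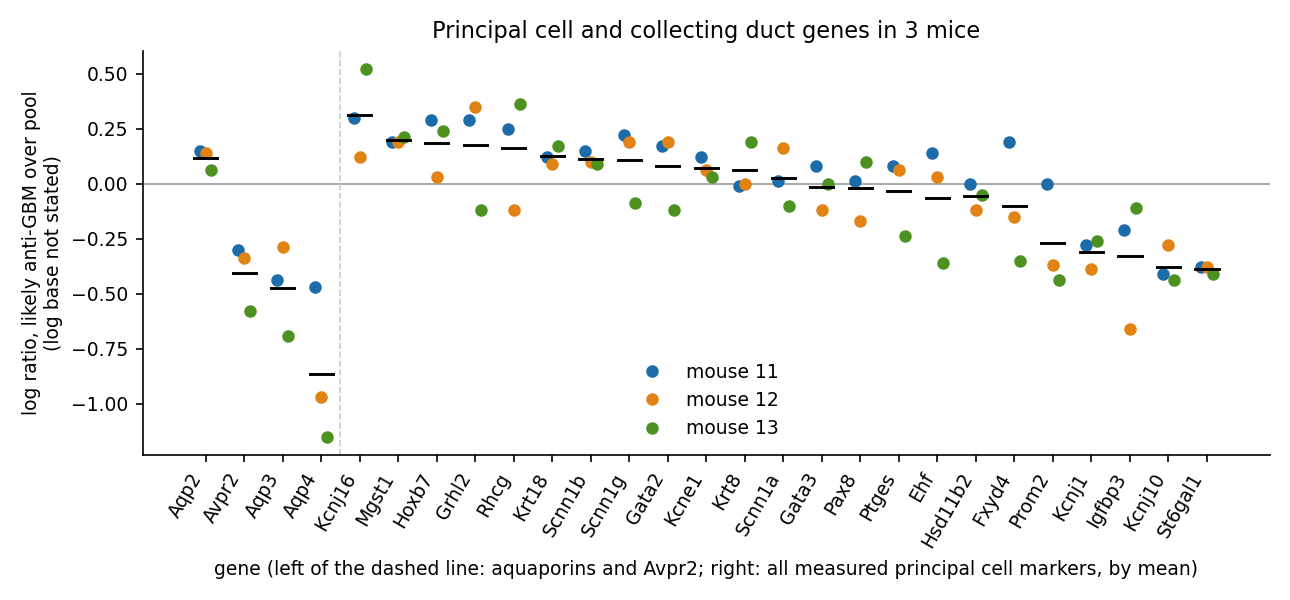
Log ratio (vertical axis, base not stated) in each of 3 mice for Aqp2, Avpr2, Aqp3 and Aqp4, left of the dashed line, and for all 23 measured principal cell and collecting duct markers, right of it, ordered by mean; bars are means over the 3 mice. The marker means run from 0.31 (Kcnj16) to -0.39 (St6gal1), readings of Ehf, Fxyd4, Prom2, Kcnj1, Igfbp3, Kcnj10 and St6gal1 reach into the range of Avpr2 and Aqp3, and Aqp4 reaches -1.15.

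In the neighbouring segments, thick limb and distal tubule markers had 6 of 13 measured genes lower, 0 higher and 7 not past the test. The share past the test was 46.2% against 19.4% of all genes, and the list median was -0.20. At an unadjusted p under 0.05 in limma, 2 were higher. The median was 0.00 in mouse 11, -0.39 in mouse 12 and -0.26 in mouse 13. The calcium-binding proteins Pvalb (-0.77 ± 0.24) and Calb1 (-0.48 ± 0.09), the sodium-calcium exchanger Slc8a1 (-0.58 ± 0.15) and the secreted inhibitor Sostdc1 (-0.42 ± 0.09) had adjusted p between 0.00412 and 0.0109. The rows of Slc8a1 ran from -0.92 to -0.36 and those of Calb1 were at -0.77 and -0.18, and rows of both lay in crowded stretches. Egf was also lower at -0.31 ± 0.07 (adjusted p = 0.0264 in limma), as was Kcnj1, which is on the principal cell list too. Egf and Kcnj1 no longer passed without mouse 11 or 12 (adjusted p up to 0.101 and 0.105). Of the markers not past the test, Slc12a3 was at 0.19 ± 0.04 and Cldn10 at 0.18 ± 0.03. Slc12a1, with its row in a crowded stretch, was at -0.04 ± 0.34. Over the thick limb and distal tubule list, 4 means lay above 0 and 9 below. Intercalated cell markers, the class that would carry Aqp6, had 2 of 9 lower, 0 higher and 7 not past the test (22.2%, median -0.03; 2 higher unadjusted). They were the anion exchanger Slc4a1 (-0.76 ± 0.29, adjusted p = 0.00583), which red blood cells share, and the transcription factor Foxi1 (-0.44 ± 0.24, adjusted p = 0.0239), which no longer passed without mouse 11 or 13 (adjusted p up to 0.0814). Of the other intercalated cell markers, Atp6v1a was at 0.21 ± 0.15, Slc26a4 at 0.10 ± 0.07 and Atp6v1b1 at -0.03 ± 0.19. On that list 4 means lay above 0 and 5 below.

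For the cells that make Aqp1, proximal tubule markers had 3 of 28 measured genes higher, 0 lower and 25 not past the test (10.7%, median 0.03; 1 lower at an unadjusted p under 0.05 in limma). The glucose-6-phosphatase gene G6pc was at 0.45 ± 0.14 (adjusted p = 0.0113), and the organic anion transporters Slc22a6 (0.30 ± 0.03) and Slc22a8 (0.26 ± 0.09) no longer passed when any 1 mouse was left out (adjusted p up to 0.113 and 0.317). Thin limb and vasa recta markers had 2 of 9 lower, 0 higher and 7 not past the test (22.2%, median -0.09; 0 higher unadjusted). They were the urea transporter Slc14a1 of the vasa recta (-0.56 ± 0.07, adjusted p = 0.00413) and the protease Corin (-0.41 ± 0.12, adjusted p = 0.0137). Endothelial markers had 1 of 17 lower, 0 higher and 16 not past the test (5.88%, median -0.01; 2 higher unadjusted). That gene was Eng (-0.37 ± 0.15, adjusted p = 0.0225), which no longer passed without mouse 11 or 13 (0.0635).

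Red blood cells also carry aquaporin-1. Their markers had 5 of 11 measured genes lower, 0 higher and 6 not past the test (45.5% against 19.4% of all genes). The median was -0.26, and 2 markers were higher at an unadjusted p under 0.05 in limma. The lower genes were Car1 (-1.67 ± 0.54, in a crowded stretch), the erythroid factor Klf1 (-0.98 ± 0.39), Slc4a1, the blood group protein Kel (-0.35 ± 0.12) and the spectrin Sptb (-0.28 ± 0.09). Kel no longer passed without mouse 11 or 13 and Sptb when any 1 mouse was left out (adjusted p up to 0.0686 and 0.117). Of the markers not past the test, Alas2 was at 0.21 ± 0.16. The globin gene Hbb-b2 was at 0.29, 0.41 and -0.86 in mice 11, 12 and 13 (mean -0.05 ± 0.70). Over the red blood cell list, 2 means lay above 0 and 9 below. The part of red blood cells in the value of Aqp1 was not tested.

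Fat cells, which express Aqp7 and surround the kidney, had 5 of 10 measured markers lower, 0 higher and 5 not past the test (against 9.97% of all genes lower; median -0.36; 0 higher at an unadjusted p under 0.05 in limma). The list medians were -0.20, -0.24 and -0.46 in mice 11, 12 and 13. The lower genes were the desaturase Scd1 (-2.37 ± 0.78, in a crowded stretch), the insulin-responsive glucose transporter Slc2a4 (-0.79 ± 0.18), the fatty acid receptor Cd36 (-0.47 ± 0.22), Lpl and the hormone gene Retn (-0.39 ± 0.27). Retn no longer passed without mouse 13 (adjusted p = 0.105). Slc2a4, Cd36 and Lpl are also made in muscle or other tissues, the defining gene Adipoq was listed at 0 on every array, and Fabp4 was at -0.13 ± 0.28. The part of fat tissue in the values of Aqp3, Aqp4 or Avpr2 was not tested.

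**Figure D4:**
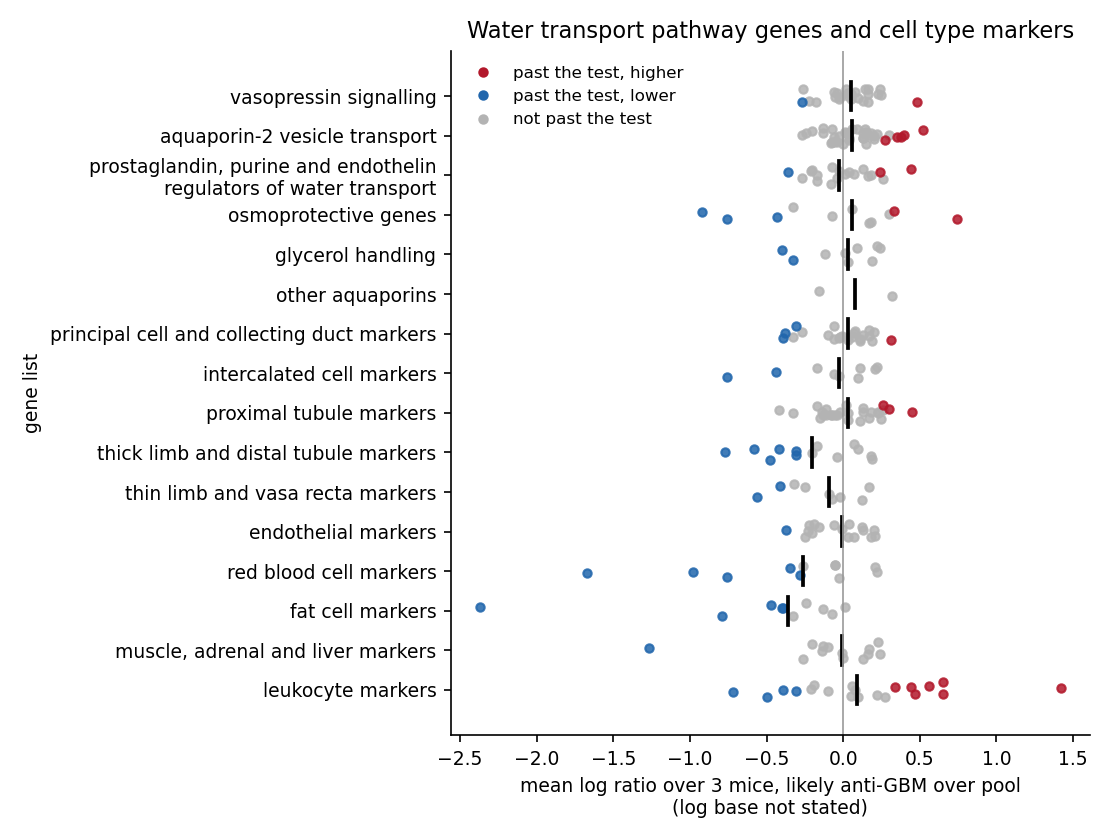
Mean log ratio over 3 mice (horizontal axis, base not stated) of each measured gene on 16 lists (vertical axis), red if higher and blue if lower past the test across all genes, grey if not past it; black bars are list medians. The vasopressin signalling and vesicle transport lists centre at 0.05 and 0.06, and the thick limb and distal tubule, red blood cell and fat cell lists at -0.20, -0.26 and -0.36.

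The genes whose readings in the 3 mice lay nearest to each member, by Euclidean distance over the 3 arrays, give the likeness that 3 points allow. Nearest to Avpr2 were Noxo1 (distance 0.025) and Zbtb8os (0.026), and nearest to Aqp3 were Smagp (0.039) and Herc1 (0.05). Aqp4 had no near neighbour: the closest were Vpreb2 (0.195) and Pvalb (0.229), which is on the thick limb and distal tubule list. Pvalb was at -0.50, -0.84 and -0.97 in mice 11, 12 and 13. The part of any cell type or tissue in this likeness was not tested. Aqp1 was closest to Tmem186 (0.005) and Api5 (0.006), and Aqp2 to 1700123O20Rik and Scamp4 (both 0.013). Distances near 0 are common where many genes lie close to 0, as around Aqp1 and Aqp2.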

How the data were processed

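Kidney RNA of 3 anti-GBM mice was measured on 2-colour arrays against 1 pool. The deposited table holds 1 score per row and array, read as a log ratio; how the authors made it (scanner, background, normalization) and its log base, centring and direction were not given in the sources used here. Medians without zeros were 0.0077, 0.0105 and 0.01. Exact zeros (29.5% to 33.7% of an array) were read as no estimate. Of 16281 rows, 13738 named 1 gene in the platform annotation, 52 several and 2491 are unnamed here; 9682 were measured on all arrays. Each array was centred on its median, rows of a gene were averaged, and an intercept-only limma 3.58.1 fit (R 4.3.3, eBayes, Benjamini-Hochberg adjusted p under 0.05) was run on 7235 genes and tested on simulated data. Summaries and figures used Python 3.11.15, pandas 2.3.3, numpy 2.4.6 and matplotlib 3.10.9. Precision is limited by the small number of arrays.

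The members and the 16 gene lists were chosen with earlier results of these data known. The lists hold 433 genes, of which 330 had a row and 244 were tested. Named were every member, up to 4 called genes per list by smallest p with 1 sign in all mice, all called where 5 or fewer, and the 2 nearest genes per member. Egf, the remaining higher leukocyte genes, and genes given with values that missed the test, were chosen after their values were seen. Alternatives covered centring, zeros, rows per gene, row position, moderation and leaving out each mouse. The planned settings were all run. Array positions of probes in the genome were not used here.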

Additional observations from a re-analysis of the deposited data

How the results depend on the processing

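Aqp1, Aqp2, Aqp3, Aqp4 and Avpr2 kept their sign under every alternative run, and their values moved by less than 1 SD over mice except that Aqp1 was at 0.08 with the local median of neighbouring rows subtracted. Part of this was fixed in advance. Aqp1, Aqp2, Aqp3 and Aqp4 have 1 row each, measured on all arrays, so the settings for zeros and rows per gene could not change them. With 1 mouse left out, the means lay within 0.14 to 0.17 for Aqp1, 0.10 to 0.15 for Aqp2, -0.56 to -0.36 for Aqp3, -1.06 to -0.72 for Aqp4 and -0.46 to -0.32 for Avpr2. With 3 readings of 1 sign, leaving out 1 can neither change the sign nor move the mean by 1 SD. The count of genes past the test was 1407, and 726 to 1032 with 1 mouse left out, lowest without mouse 11. It was 22 with exact zeros kept as values and 3 without moderation of the variances, where 2227 and 1634 genes had an unadjusted p under 0.05. On the lists 54 different genes passed, 39 to 51 with 1 mouse left out, 1 with zeros kept and 0 without moderation (a t statistic on 3 arrays, 56 at an unadjusted p under 0.05). Apart from these last settings, the calls per list ran from 1 to 3 for vasopressin signalling (2 as reported), 3 to 5 for vesicle transport (5), 1 to 3 for local regulators (3), 4 to 7 for osmoprotective genes (5), 0 to 3 for glycerol handling (2), 2 to 4 for principal cells (4), 1 to 3 for intercalated cells (2), 1 to 4 for proximal tubule (3), 4 to 6 for thick limb and distal tubule (6), 2 to 3 for thin limb and vasa recta (2), 0 to 2 for endothelium (1), 3 to 7 for red blood cells (5) and 3 to 6 for fat cells (5). The setting with zeros kept as values was left out of the ranges of list medians. In the other settings the medians of the thick limb and distal tubule, red blood cell and fat cell lists stayed below 0. They ran from -0.32 to -0.16, -0.30 to -0.08 and -0.45 to -0.23, in that order. The cause of these moves was not tested. No paired analysis was possible because there is 1 group. Brightness of the spots was not used here, so no limit from signal over background can be given.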

Other observations

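Of the cell types outside the tubule, leukocyte markers moved in both directions. Of 20 measured markers on a list of 33, 7 were higher and 4 lower, while 9 did not pass (55.0% against 19.4% of all genes, median 0.09, and 0.27, 0.03 and -0.02 in mice 11, 12 and 13). The calcium-binding proteins S100a9 and S100a8 were at 1.42 ± 0.38 and 0.56 ± 0.06, the latter with rows at 0.01 and 1.12, and the granzyme Gzma was at 0.65 ± 0.27. The other higher genes were the immunoglobulin receptor Fcgr1 (0.65 ± 0.28), the integrin Itgb2 (0.44 ± 0.11), the T cell coreceptor Cd4 (0.34 ± 0.15) and the lysozyme Lyz2 (0.47 ± 0.31). The lower genes were the immunoglobulin heavy chain Ighm (-0.50 ± 0.07), the growth factor receptor Csf1r (-0.72 ± 0.33) and the granule proteins Ltf (-0.39 ± 0.05) and Ngp (-0.31 ± 0.17, in a crowded stretch). The rows of Ighm ran from -1.32 to -0.06. Ngp no longer passed without mouse 11 or 12 (adjusted p up to 0.156 by limma), and Cd4 and Lyz2 without mouse 11 or 13 (up to 0.101 and 0.123). Between 8 and 11 leukocyte markers passed with the settings other than zeros kept and no moderation.

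Markers of muscle, adrenal gland and liver, tissues near the kidney or in which some aquaporins are made, had 1 of 13 measured genes lower, 0 higher and 12 not past the test (7.69%, median -0.01; 2 higher at an unadjusted p under 0.05 in limma). The lower gene was the myosin Myh1, at -0.96, -1.25 and -1.59 in mice 11, 12 and 13. The other 8 measured muscle genes of the list had means between -0.20 (Actn3) and 0.23 (Ckm).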
